A study of Rattus norvegicus with 6 samples.

Results

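The miR-181 family comprises 4 mature miRNAs in the rat, rno-miR-181a-5p, rno-miR-181b-5p, rno-miR-181c-5p and rno-miR-181d-5p (written without the species prefix from here on), out of 693 mature miRNAs in the reference table. Small RNA was sequenced from the liver of 3 rats with nonalcoholic fatty liver disease (NAFLD) and 3 normal rats, 1 library per rat. All were male Wistar rats, labelled as 4 months old, while the methods of the study give a different age. Those of the NAFLD group were fasted for 48 h and then fed 7 days on chow of 80% starch, and livers with higher triglycerides were picked, so that diet, fasting and this selection cannot be told apart. Normal rats received a standard diet with 35% starch and were picked at random. Each library was deposited as a list of distinct reads, called tags, with the number of reads of each. A tag was counted for a member when its first 18 bases were those of the mature sequence, and counts were expressed as TPM, here reads per 1000000 clean reads without correction for length. All 4 members were found, with 7140 reads in all among 11601058 to 11880695 clean reads per library. The libraries were not alike in base substitutions: NAFLD 2, NAFLD 3 and normal 2 (group and replicate number) held frequent ones. This was measured at position 4 of 50 abundant tags with different 18-base starts, none of them far below its mean TPM in any library. The median was 1.86% to 2.23% in these libraries against 0.0411% to 0.0610% in the others. Results are therefore also given within each of these 2 sets.

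A miRNA guides the Argonaute protein to messenger RNAs that pair with its seed, the bases 2 to 8 from its 5′ end, and thereby lowers the output of those messages. The miR-181 family is known from lymphocyte development, where miR-181a tunes the sensitivity of T cell signalling, and from the endothelium, where miR-181b restrains inflammatory signalling. In the liver it has been studied in lipid metabolism and in hepatocellular carcinoma. Each hairpin precursor holds a member on its 5p arm and a partner on its 3p arm.

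The sequences below are from the RefSeq table (build GRCr8), shown because the seed and the few bases that tell members apart decide every count that follows. Capitals mark the seed.
miR-181a-5p: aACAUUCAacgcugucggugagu
miR-181b-5p: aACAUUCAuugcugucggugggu
miR-181c-5p: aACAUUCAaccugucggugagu
miR-181d-5p: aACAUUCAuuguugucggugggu
All 4 mature sequences carried the same seed, and no other mature miRNA of the table did. Counted from 1 at the 5′ end, with the base of the first-named member first, miR-181a-5p and miR-181b-5p differ by A9U, C10U and A21G. Only C12U separates miR-181b-5p from miR-181d-5p. miR-181c-5p is miR-181a-5p without base 11. The first 18 bases therefore differ between all members, and no tag had to be shared among them.

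The family is encoded by 6 genes in 3 pairs. Mir181a-1 (mature at chr13:52037081-52037103) and Mir181b1 (chr13:52037263-52037285) lie side by side on the plus strand within the span of the long noncoding RNA gene LOC108352541, and the hairpin gene Mir3570 overlaps Mir181a-1. Mir181a2 (chr3:43025601-43025623, plus strand) and Mir181b2 lie within the spans of Nr6a1, which encodes an orphan nuclear receptor, and of the long noncoding RNA gene LOC120101539. Mir181c (chr19:40888314-40888335) and Mir181d (chr19:40888484-40888506), also on the plus strand, overlap no other gene of the annotation. The mature miR-181a-5p of both its genes is identical, so its reads cannot be assigned to chromosome 3 or 13, and the same holds for miR-181b-5p. These positions are in GRCr8, whereas the labels name the earlier build Rnor_5.0. The deposited files hold no coordinates.

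Among 375 miRNAs or joint groups with at least 1 read, miR-181a-5p ranked 51 by mean TPM, with 62.2 ± 19.3 TPM (SD over all 6 libraries). It stood between miR-128-3p with 63.8 ± 28.9 and miR-92a-3p with 57.9 ± 20.8 TPM, neighbours from which it does not differ beyond the spread. miR-181b-5p ranked 67 with 30.9 ± 8.48 TPM, miR-181d-5p 105 with 7.38 ± 2.19 TPM and miR-181c-5p 199 with 0.440 ± 0.295 TPM (SD, n = 6). The exact match misses reads of the members in 3 libraries. Allowing 1 substitution, miR-181a-5p had 76.4 ± 24.4 TPM (SD, n = 6) and the members ranked 51, 66, 108 and 196 of 387 in the same order. In every library the order was miR-181a-5p, miR-181b-5p, miR-181d-5p, miR-181c-5p. The pair on chromosome 19 thus gave the 2 lowest members, and miR-181c-5p rests on 31 reads in all.

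The reads of miR-181a-5p numbered 898, 620 and 966 for NAFLD 1 to 3 and 737, 345 and 833 for normal 1 to 3. This gave 77.4, 52.7 and 81.8 TPM against 62.2, 29.1 and 70.1 TPM. Replicate 2 was the lowest library of each group, and the groups overlapped. The means were 70.6 ± 15.7 and 53.8 ± 21.8 TPM (SD, n = 3 each), a log2 fold change of NAFLD over normal of 0.39 (standard error 0.46, edgeR's quasi-likelihood test, adjusted p = 0.986). Without normal replicate 2, the log2 fold change was 0.09.

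For miR-181b-5p, 443, 322 and 496 reads of NAFLD 1 to 3, or 38.2, 27.4 and 42.0 TPM, stood against 331, 216 and 380 reads of normal 1 to 3, a mean of 26.0 ± 7.09 TPM (SD, n = 3), again with overlap and with replicate 2 lowest in each group. Its log2 fold change was 0.46 (standard error 0.41, edgeR, adjusted p = 0.986). miR-181d-5p had 8.79, 5.44 and 7.62 TPM against 7.85, 4.30 and 10.3 TPM, with a log2 fold change of -0.04 (standard error 0.42, edgeR, adjusted p = 0.986). The highest value of this member was in a normal library, unlike for miR-181a-5p and miR-181b-5p. miR-181c-5p had 10, 6 and 3 reads for NAFLD and 5, 0 and 7 for normal, too few to pass edgeR's filter. The 0 reads of normal replicate 2 allow a level of up to 0.253 TPM (3 reads, counting error only). In the fit without that filter, its log2 fold change was 0.67 (standard error 0.78, edgeR, adjusted p = 0.995).

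None of the 3 members tested passed an adjusted p of 0.05, and neither did any of the other miRNAs but 1, or 0.568% of the 176 tested. The miRNA that passed was miR-122-5p, the dominant hepatocyte miRNA, which was lower in the NAFLD libraries with a log2 fold change of -0.35 (standard error 0.04, edgeR, adjusted p = 0.000191). This call was lost with TMM factors (adjusted p = 0.932), with library size equal to miRNA reads (0.101), with 1 substitution and TMM factors (0.554) and with DESeq2 (0.985). DESeq2 instead called 1 other miRNA, lower in NAFLD. At an unadjusted p under 0.05 there were 4 miRNAs in the edgeR fit by exact match, none of them of the family. There were 14 with 1 substitution allowed, miR-181b-5p among them, and with the set of like substitution rate as a covariate 27, with miR-181a-5p and miR-181b-5p among them. Within the sets of like substitution rate, the log2 ratio of mean TPM, NAFLD over normal, was 0.23 with few and 1.21 with frequent substitutions for miR-181a-5p, and 0.35 and 0.93 for miR-181b-5p. For miR-181d-5p the sets went opposite ways, with -0.04 and 0.60.

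The exact 18-base match did not treat the libraries alike. In the 3 libraries with frequent substitutions, many reads equalled a member except for 1 base, and position 8 held most of them. There A was replaced by C (A8C) in 223, 329 and 143 reads of miR-181a-5p in these libraries, beside 620, 966 and 345 exact reads, which is 26.5%, 25.4% and 29.3% (NAFLD 2, NAFLD 3, normal 2). In the other 3 libraries no read of miR-181a-5p with 1 substitution had it at position 8. miR-181b-5p behaved alike, with 20.7%, 23.8% and 24.2% in the former libraries and 0 reads in the latter, and miR-181d-5p had 27, 30 and 20 such reads beside 64, 90 and 51 exact ones. Position 8 is the last base of the seed.

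**Figure D1:**
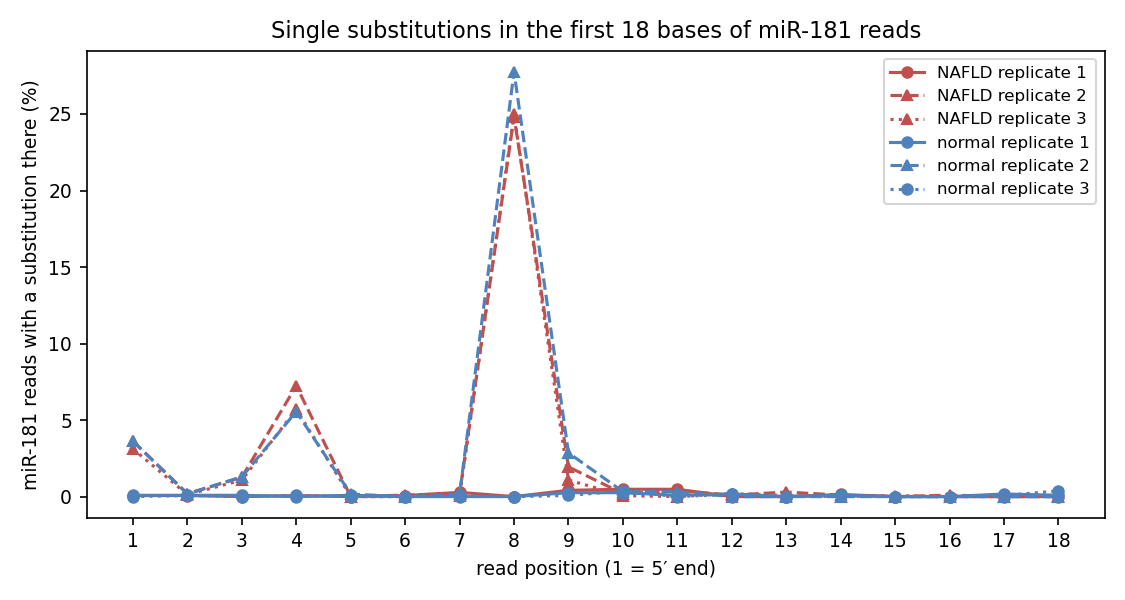
Share of miR-181 reads with a single substitution at each of the first 18 read positions, over the 4 members together, for each of the 6 libraries (red: NAFLD, blue: normal; triangles: libraries with frequent substitutions, circles: the others; lines only join the points). Position 8 stands at 24.8% to 27.7% in the 3 libraries with frequent substitutions and at 0 in the others, with a lower rise at position 4.

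Position 4 carried substitutions in 7.24%, 5.70% and 5.56% of the miR-181 reads of the same 3 libraries, and position 1 in 3.62%, 3.12% and 3.62%. At both positions the share was at most 0.0857% in the other libraries. Over the first 18 bases, reads with 1 substitution were 33.0%, 31.2% and 34.8% of all miR-181 reads so counted in the same libraries, and 0.935% to 1.22% in the others. The mean length of reads with A8C was close to that of exact reads, with 23.6 against 23.6 nt for miR-181a-5p of NAFLD 2 and, for miR-181d-5p of normal 2, 23.9 against 23.6 nt.

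This was not particular to the family. Of 99 miRNAs with at least 50 exact reads in every library, 30 had A at position 8, and the 27 of them outside the family had substitutions there in a median of 21.7%, 22.1% and 20.9% of their reads in these 3 libraries, with a range from 14.0% to 27.6%. The median was 0 in each of the other 3 libraries. Where position 8 held C, G or U, in 69 miRNAs, at most 2.67% of the reads had another base there in any library. The 4 members share A at this position through their common seed. All 3 members with enough reads were thus undercounted by an exact match in 2 NAFLD libraries and 1 normal library. The cause of the substitution was not tested.

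**Figure D2:**
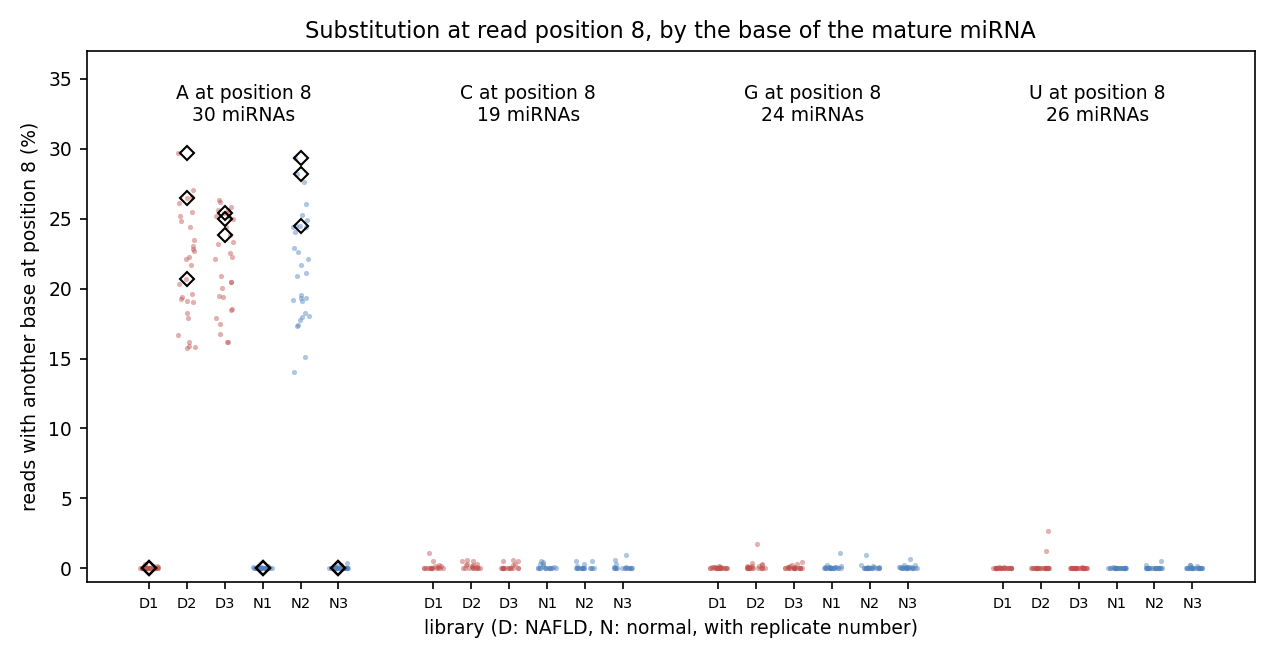
Percent of reads with another base at read position 8 for 99 miRNAs, grouped by the base their mature sequence has there, in each library (D1 to D3: NAFLD, N1 to N3: normal; 1 dot per miRNA; black diamonds: miR-181a-5p, miR-181b-5p and miR-181d-5p). In D2, D3 and N2 the miRNAs with A lie between 14.0% and 29.7%, and miRNAs with another base reach at most 2.67%.

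With 1 substitution allowed in the first 18 bases, miR-181a-5p had 911, 945 and 1411 reads for NAFLD and 744, 551 and 844 for normal, or 78.5, 80.4 and 119 TPM against 62.8, 46.4 and 71.0 TPM. All NAFLD libraries then lay above all normal libraries. The log2 fold change was 0.63 (standard error 0.30, edgeR, adjusted p = 0.580). For miR-181b-5p, 38.6, 39.2 and 60.4 TPM stood against 28.1, 26.0 and 32.2 TPM, also without overlap, with a log2 fold change of 0.68 (standard error 0.29, edgeR, adjusted p = 0.580). miR-181d-5p kept overlapping groups, with 102, 97 and 127 reads against 95, 76 and 124 and a log2 fold change of 0.16 (standard error 0.30, edgeR, adjusted p = 0.959). miR-181c-5p, with 10, 8 and 8 reads against 5, 3 and 8, had all NAFLD libraries above all normal ones, but by 0.677 against 0.673 TPM between the nearest libraries, which held 8 reads each.

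Groups without overlap and with NAFLD above normal occurred in 10.4% of the 182 miRNAs tested with this counting, and in 3.98% of the 176 tested by the exact match. With NAFLD below normal these shares were 4.4% and 1.14%. Above and below, they were 5.08% and 2.26% with any base allowed at position 8, and 11.8% and 2.69% with up to 2 substitutions. The adjusted p of both members stayed above 0.05, and the share of all miRNAs called was 0.549%. The size of the difference was not alike within the libraries of like substitution rate. With 1 substitution allowed, the log2 ratio of mean TPM for miR-181a-5p was 0.23 in the set with few and 1.11 in the set with frequent substitutions. For miR-181b-5p these values were 0.36 and 0.94, and for miR-181d-5p -0.07 and 0.57. For miR-181d-5p the direction differed between the sets. For miR-181a-5p and miR-181b-5p it was the same, as it must be where the groups do not overlap. Neither set alone allows a test, with 1 library on 1 side.

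Over all 182 the median log2 fold change was 0.14, and over the 176 by exact match 0.02. With this division of the libraries as a covariate and 1 substitution allowed, the log2 fold change was 0.67 for miR-181a-5p (standard error 0.28, edgeR, adjusted p = 0.161) and 0.65 for miR-181b-5p (standard error 0.29, edgeR, adjusted p = 0.208). In that fit 5.49% of the 182 miRNAs passed an adjusted p of 0.05, 8 of them higher and 2 lower in NAFLD, and no member was among them. Across the fits, the adjusted p of miR-181a-5p ranged from 0.161 to 1.00, and that of miR-181b-5p from 0.208 to 1.00.

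**Figure D3:**
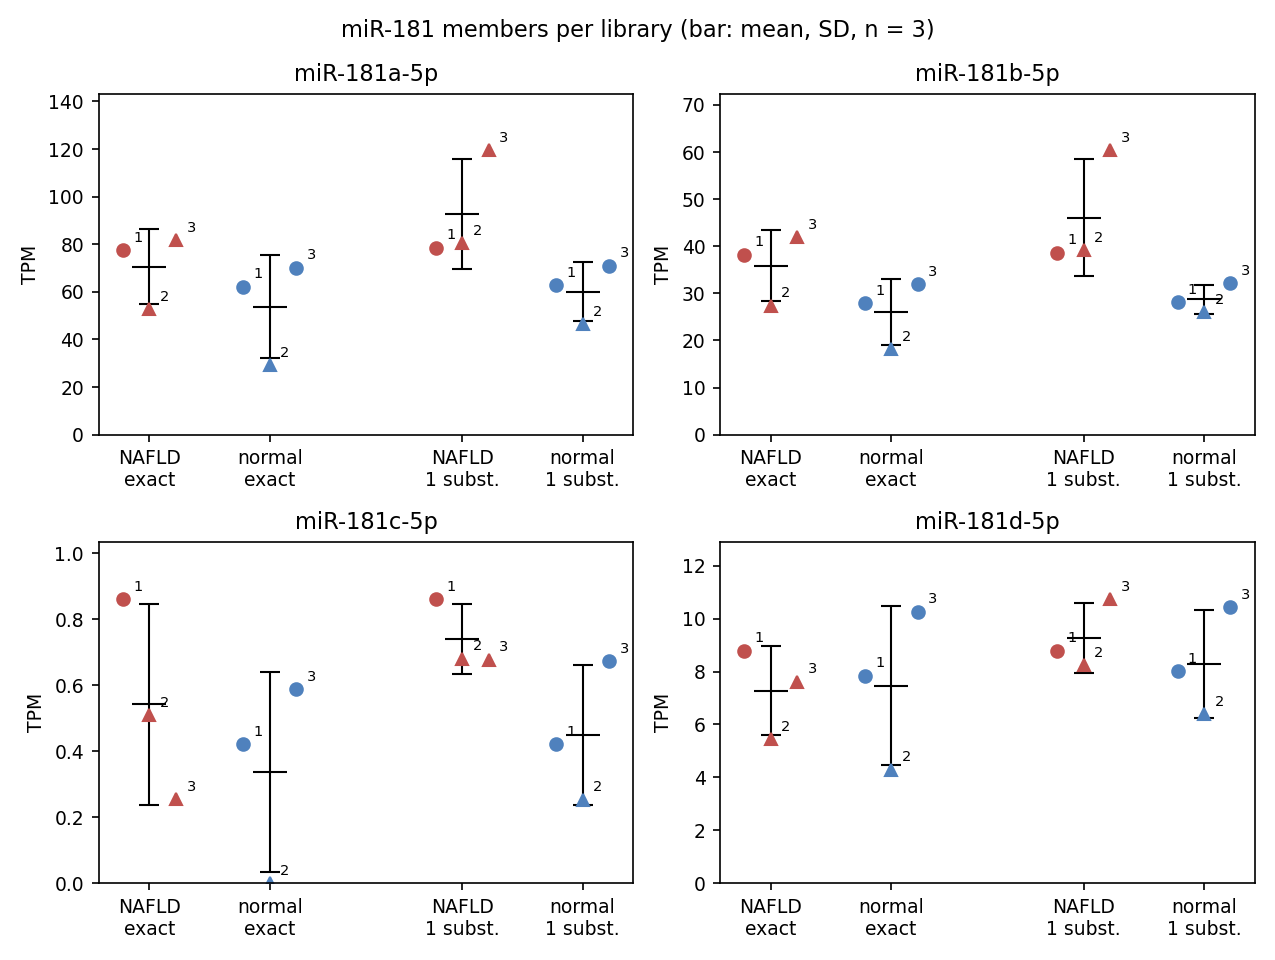
TPM of each member in every library, by exact match of the first 18 bases (left pairs) and with 1 substitution allowed (right pairs); red: NAFLD, blue: normal, numbers: replicates, triangles: libraries with frequent substitutions, horizontal marks and bars: mean and SD of 3 libraries. For miR-181a-5p and miR-181b-5p the groups overlap on the left and separate on the right, while those of miR-181d-5p overlap in both.

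The shares of the members within the family depend less on the scaling of a library, since all members come from the same reads. By exact match, miR-181a-5p made up 61.7% ± 0.433 of the miR-181 reads in the NAFLD group and 60.6% ± 3.66 in the normal group (SD, n = 3 each; two-sided exact permutation test, p = 0.9). miR-181b-5p made up 31.4% ± 0.791 and 30.7% ± 4.01 (exact permutation p = 0.8). Both differences were within the spread, and most of the spread of the normal group came from replicate 2, with 56.4% miR-181a-5p and 35.3% miR-181b-5p.

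miR-181d-5p made up 7.02%, 6.32% and 5.79% for NAFLD 1 to 3 and 7.98%, 8.33% and 9.09% for normal 1 to 3. Every NAFLD library lay below every normal one, with a difference of -2.09 percentage points (exact permutation p = 0.1, the smallest that 3 libraries against 3 allow, and 0.4 after Benjamini-Hochberg adjustment over the 4 shares). The 95% Wilson intervals did not overlap between NAFLD 3 (4.73% to 7.06%) and normal 3 (7.67% to 10.7%), the libraries with the lowest and highest share. For every other pairing of a NAFLD with a normal library they overlapped, as for NAFLD 1 (5.82% to 8.45%) and normal 1 (6.56% to 9.67%). With 1 substitution allowed the shares were 6.93%, 6.42% and 5.62% against 8.07%, 8.09% and 9.13%, so this order did not rest on the substituted reads. Within the sets with few and with frequent substitutions, the differences were -1.51 and -2.28 percentage points by exact match. Their sign was fixed by the lack of overlap, so they add no further support. Counting whole mature sequences only, the difference was -0.18 points and the groups overlapped, on 42 reads of miR-181d-5p.

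Expressed as a ratio, there were 4.34, 5.03 and 5.51 reads of miR-181b-5p for each read of miR-181d-5p in the NAFLD group and 3.56, 4.24 and 3.11 in the normal group (exact permutation p = 0.1, not adjusted). This ratio restates the share of miR-181d-5p on the same reads, so it adds no further support. The ratio of miR-181a-5p to miR-181b-5p was 1.97 ± 0.0534 and 2.01 ± 0.354 (SD, n = 3 each; exact permutation p = 1). Since only C12U separates miR-181b-5p from miR-181d-5p, reads of the former misread at position 12 would be counted as the latter. No read of miR-181b-5p had A or G at position 12, while 522 had the T of miR-181d-5p. The same change of C to T at positions 3, 7 and 16 of miR-181b-5p was seen in 1, 7 and 0 reads. At position 12 of miR-181a-5p it was seen in 3 reads, beside 4399 exact ones. The part of misreading in the reads of miR-181d-5p was not tested.

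**Figure D4:**
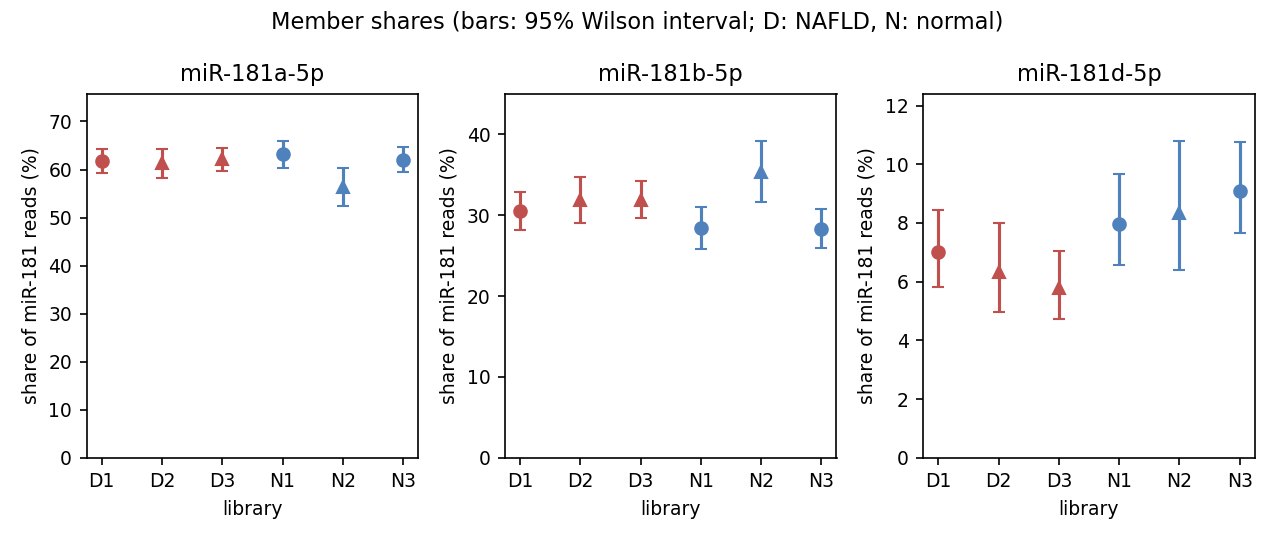
Share of the miR-181 reads of each library that belonged to miR-181a-5p, miR-181b-5p and miR-181d-5p, by exact match (D1 to D3: NAFLD, N1 to N3: normal; bars: 95% Wilson intervals, which cover counting error only). The shares of miR-181d-5p lie between 5.79% and 7.02% in the NAFLD libraries and between 7.98% and 9.09% in the normal libraries.

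The reads of the family mostly ran past the annotated 3′ end, which is why the most abundant tag of each member, as read, is given here with the seed in capitals.
miR-181a-5p: aACATTCAacgctgtcggtgagttt
miR-181b-5p: aACATTCAttgctgtcggtgggtt
miR-181c-5p: aACATTCAacctgtcggtgagttt
miR-181d-5p: aACATTCAttgttgtcggtgggtt
The tag of miR-181a-5p has 25 nt, 2 more than the mature sequence, and made up 37.5% of its reads, whereas the mature sequence itself made up 8.68%. Those of miR-181b-5p and miR-181d-5p have 24 nt and made up 44.1% of the reads of the former and 193 of the 522 reads of the latter. All of these ends follow the RefSeq hairpins of Mir181a2, Mir181b2, Mir181c and Mir181d. The hairpins of Mir181a-1 and Mir181b1 were not in the table used.

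Reads longer than the mature sequence were 64.0% of miR-181a-5p, 81.8% of miR-181b-5p, 73.8% of miR-181d-5p and 83.9% of the few reads of miR-181c-5p. Among 171 miRNAs tested and counted singly the median of this share was 34.8%, and the first 3 members ranked 49, 22 and 37. The 5′ end was almost fixed. No read began 1 to 3 bases before the annotated start, and starts 1 base later numbered 9 for miR-181a-5p, 21 for miR-181b-5p and 1 for miR-181d-5p.

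**Figure D5:**
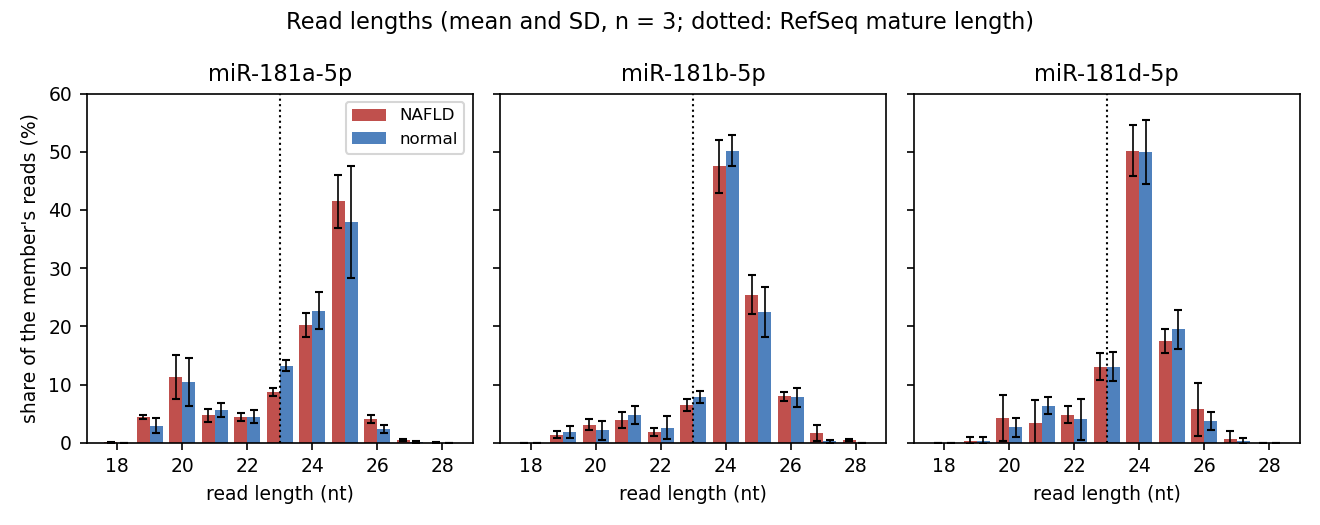
Read lengths of miR-181a-5p, miR-181b-5p and miR-181d-5p as percent of the reads of each member (bars: mean of 3 NAFLD libraries in red and 3 normal libraries in blue, error bars: SD, dotted line: length of the mature sequence). miR-181a-5p peaks at 25 nt with a second, lower peak at 20 nt, and the other members peak at 24 nt.

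Reads of 23 nt, the annotated length, were 9.13%, 9.19% and 7.97% of miR-181a-5p for NAFLD and 14.1%, 12.2% and 13.4% for normal. The groups did not overlap, with a difference of -4.48 percentage points (exact permutation p = 0.1, and 0.6 after Benjamini-Hochberg adjustment over the 6 shares compared). The share of 25 nt or more was 46.2% ± 4.22 against 40.6% ± 10.4 (SD, n = 3 each; exact permutation p = 0.5), a difference within the spread. In that class the libraries with frequent substitutions were the highest, with 46.3% for NAFLD 2, 50.3% for NAFLD 3 and 52.2% for normal 2, against 32.2% to 41.9% in the others. Reads of 20 nt or less were 15.7% ± 3.95 and 13.4% ± 5.35 (exact permutation p = 0.6).

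Reads that followed the hairpin to their end were 88.4% for miR-181a-5p, 73.4% for miR-181b-5p and 57.9% for miR-181d-5p, over all libraries. In 3.61%, 7.36% and 13.0% of their reads only the last base left the hairpin and was an A, and in 4.39%, 6.31% and 9.77% it was a T. For miR-181b-5p and miR-181a-5p these values refer to 1 of their 2 hairpins each. Between the groups, the share of miR-181a-5p reads that followed the hairpin had means of 87.7% and 88.9% (n = 3 each; exact permutation p = 0.2), with 87.0% to 89.0% for NAFLD and 87.8% to 89.4% for normal.

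The 3p arms of the hairpins were scarcely read. miR-181a-1-3p had 48 reads in all, miR-181a-2-3p 18, miR-181b-1-3p 6, miR-181c-3p 5 and miR-181d-3p 0. None of these 5 passed edgeR's filter. The summed 3p arms had 16, 8 and 13 reads for NAFLD and 16, 11 and 13 for normal, with overlapping groups. Of the reads matching the hairpin of Mir181c, 28 lay on the 5p side and 4 on the 3p side, and over that of Mir181d these counts were 303 and 0. No arm share is given for the hairpins of Mir181a2 and Mir181b2, since their 5p reads cannot be told from those of the other gene of the same member.

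Over the 6 libraries, the miRNA whose log2(TPM + 1) was most like that of the summed members was miR-378a-3p, made from an intron of the coactivator gene Ppargc1b, with Pearson's r of 0.987. It was followed by miR-223-3p (0.961), the joint reads of miR-103-3p and miR-107-3p (0.958), miR-503-5p (0.954) and miR-214-3p (0.945), out of 144 miRNAs with a median r of 0.646. With 1 substitution allowed, miR-378a-3p again came first, with r of 0.989. By that counting it had 1370, 1258 and 1994 TPM for NAFLD and 871, 714 and 1114 for normal. These values are a description over libraries that share depth and the division by substitution rate.

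The liver label was checked against marker miRNAs. The 4 hepatocyte miRNAs, led by miR-122-5p, summed to 474195 to 481459 TPM in the NAFLD libraries and 582999 to 621798 TPM in the normal libraries. Nearly all of this sum was miR-122-5p, with means of 456551 and 581611 TPM. miR-192-5p, miR-194-5p and miR-148a-3p had log2 fold changes of 0.04, -0.04 and -0.38, and none was called in the reported fit. All NAFLD libraries lay below all normal ones in 1.14% of the 176 miRNAs tested. The neuronal miR-9a-5p was at or below 0.170 TPM and, of 4 heart and muscle miRNAs, miR-133a-3p and miR-208a-3p were at 0. The other 2 were detected, miR-1-3p with means of 4.09 TPM for NAFLD and 2.44 TPM for normal and miR-206-3p with 0.744 and 0.450 TPM. TPM is a share of all reads, so the levels of miRNAs in a library are not independent. miR-181 is also known from blood cells and endothelium. The 5 markers of lymphoid and myeloid cells found in the table summed to 26.5 to 39.4 TPM in the NAFLD libraries and 20.2 to 42.7 TPM in the normal ones. The 2 endothelial markers summed to 23.5 to 48.4 and 14.7 to 41.1 TPM, and both sums overlapped between groups. The sums are by exact match, and miR-126a-5p, most of the endothelial sum, has A at position 8. There 20.3%, 22.1% and 24.9% of its reads were substituted in NAFLD 2, NAFLD 3 and normal 2. Of the blood cell and endothelial markers, 3 and 2 were tested and 0 called, against 0.568% of all 176 miRNAs. The 3 stellate cell markers summed to 404 to 446 and 213 to 390 TPM, without overlap and with 0 markers called. Nearly all of this sum was miR-199a-3p, with means of 423 and 296 TPM, and miR-214-3p overlapped between the groups. Among the 176 miRNAs tested, 3.98% had all NAFLD libraries above all normal ones. The part of these markers in the miR-181 values was not tested. In whole liver, fewer cells of a type and less RNA per cell cannot be told apart. Of 20 miRNAs listed for steatosis and insulin action, 18 were in the table and 17 tested, of which 0 were higher and 1, miR-122-5p, lower, with a median log2 fold change of -0.09 against 0.02 over all 176. With 1 substitution allowed and the set as covariate, 5.49% of all 182 miRNAs were called. Of this list, miR-132-3p (log2 fold change 1.49, edgeR, adjusted p = 0.000269) and miR-378a-3p (0.83, adjusted p = 0.00604) were called higher in that fit. miR-122-5p was called lower (-0.36, adjusted p = 0.000364). The joint reads of miR-27a-3p and miR-27b-3p were called higher (1.76, adjusted p = 0.00933), but neither of these miRNAs counted singly. Counted singly in the reported fit, they had log2 fold changes of 0.18 and -0.15.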

How the data were processed

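Small RNA of 18 to 30 nt was gel-purified and sequenced by the authors, who removed reads of low quality, with adapter faults, with poly A or shorter than 18 nt. The deposited counts are raw reads per distinct tag, not normalized and not filtered for a genome match. They summed to the clean reads in each deposited log, and both deposited forms of each list were identical.

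Tags were assigned to 693 rat miRNAs of the RefSeq table (GRCr8) by their first 18 bases, and shared starts were split by the longest exact match. The 7 miRNAs under 18 nt were left out. TPM is the count divided by total clean reads and multiplied by 1000000, as in the paper. edgeR 4.0.16 (R 4.3.3; glmQLFit, glmQLFTest, filterByExpr) used all 6 libraries, library size equal to total clean reads and Benjamini-Hochberg adjustment over 176 miRNAs at 0.05. Standard errors were derived from the fold change and its F statistic. DESeq2 1.42.0 and limma 3.58.1 were alternatives. Shares were compared by two-sided exact permutation tests (scipy 1.17.1), where 0.1 is the smallest p with 3 libraries a group. The fit was tested on simulated counts with 60 of 176 miRNAs changed. At the fitted spread it recovered 8 of 27 miRNAs with a log2 change of 1 and 27 of 29 with a change of 2. At a low spread these were 27 of 29 and 30 of 30, and false calls were 0 throughout. Smaller changes were not simulated, so a missing call does not show that a member was unchanged.

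Named miRNAs are the members, their 3p arms, the next miRNA above and below in rank, and the 5 most alike over the libraries. The members and lists were chosen with earlier results of these data known. Substitution counts and the 69 miRNAs without A at position 8 were examined only after the values were seen. The labels do not say whether replicate numbers pair the rats. Deviations from the group means correlated with r of 0.15, 0.34 and -0.53 for numbers 1, 2 and 3. Between different numbers r ranged from -0.52 to 0.44. With 3 libraries a group these values cannot decide the question. Reads were amplified and carry no molecular identifiers, so intervals and limits cover counting error alone.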

Additional observations from a re-analysis of the deposited data

How the results depend on the processing

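For miR-181a-5p and miR-181b-5p, no alternative brought the adjusted p under 0.05. Their log2 fold changes were positive under all 22 alternatives, apart from miR-181a-5p counted by whole mature sequences only, at -0.18. Leaving out 1 library gave 0.09 to 0.63 and 0.26 to 0.64. miR-181d-5p, at -0.04, had no stable sign. It was positive with library size equal to miRNA reads (0.16), 1 substitution allowed (0.16), up to 2 (0.18), any base at position 8 (0.15), the substitution set as covariate (0.27, and 0.25 with 1 substitution allowed), 1 substitution with TMM factors (0.0438) and limma (0.0142), and ranged from -0.31 to 0.26 without 1 library. With a replicate block the log2 fold changes were 0.46, 0.48 and 0.0148 for miR-181a-5p, miR-181b-5p and miR-181d-5p, and 0.18 for the last with 1 substitution allowed, and the number of miRNAs called stayed at 1. The block changed no other call. That number was 0 with TMM factors, with library size equal to miRNA reads, with 1 substitution and TMM factors, and over all 18-base starts of the libraries, where 12, 9, 19 and 998 had an unadjusted edgeR p under 0.05. It was 10 with 1 substitution and the set as covariate, and 1 to 2 without 1 library, with 2 without NAFLD replicate 1. The median log2 fold change of all miRNAs was 0.02 in the reported fit, 0.21 with library size equal to miRNA reads and 0.01 with TMM factors.

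The difference in the share of miR-181d-5p was negative under all 14 alternatives, from -2.41 to -1.78 points without 1 library. Leaving out a library, the replicate block and the sets could not change its sign, since the groups did not overlap. Only other ways of counting could, and whole mature sequences gave -0.18 points. The share of miR-181a-5p was -2.97 points by whole mature sequences and -0.84 points in the set with few substitutions, and ranged from -0.91 to 2.51 without 1 library. That of miR-181b-5p was -3.44 points in the set with frequent substitutions and ranged from -0.44 to 3.05. The difference in summed members, 26.7 TPM by exact match, was -0.358 TPM by whole mature sequences, 51.3 TPM with 1 substitution allowed, 57.3 TPM in that set and 8.65 to 40.8 TPM without 1 library. That of the 3p arms was 0.230 TPM by whole mature sequences, 0.355 TPM with up to 2 substitutions and -0.233 to 0.116 TPM without 1 library. For miR-181a-5p lengths, the set with frequent substitutions gave 0.71 points at 21 to 22 nt, 0.51 at 24 nt, -3.87 at 25 nt or more and 0.24 for reads following the hairpin. Without 1 library, reads of 20 nt or less ranged from -0.71 to 4.19 points, 21 to 22 nt from -2.27 to 0.016, 23 nt from -5.01 to -4.04, 24 nt from -3.41 to -0.68 and 25 nt or more from 1.40 to 11.4. The cause of these changes was not tested. Any base at position 8, up to 2 substitutions and the combined settings were chosen after seeing the data.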
